A study of Homo sapiens with 6 samples.

Results

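SRSF genes encode the serine and arginine rich splicing factors (SR proteins), and HNRNP genes encode the heterogeneous nuclear ribonucleoproteins (hnRNPs). The set was taken by name, as every row of the expression table whose gene name begins with SRSF and a digit or with HNRNP, without names that end in P and digits, which mark pseudogenes. This gave 39 of 60606 rows, 12 SRSF and 27 HNRNP. The data were RNA-seq of 6 xenograft tumors of MDA-MB-231, a human triple-negative breast cancer cell line, injected with Matrigel under the skin of NSG mice, which lack T, B and natural killer cells. The 3 control tumors were not irradiated. The 3 irradiated tumors were given 10 Gy of X-rays locally, in 1 dose, once they had grown to about 800 mm3, and were taken 3 days later. All 6 share the same wild-type cell line and host strain. The volume and collection time of the control tumors are not given in the labels, which also do not say that each tumor came from a separate mouse, so a p-value here reflects only how far these samples spread, which may be technical.

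SR proteins bind short exonic sequences through RNA recognition motifs and, through a tail of arginine and serine dipeptides that kinases phosphorylate, help the spliceosome to recognise exons. The hnRNPs coat nascent transcripts, often act against SR proteins at the same exons, and also take part in export, stability and translation of mRNA. Many genes of both families limit their own level through a poison exon or a retained intron, which sends the transcript to nonsense-mediated decay. In GENCODE release 29, 25 of 33 tested members typed as protein-coding (75.8%) had an annotated transcript of the decay type, against 44.1% of 12014 tested protein-coding genes, and 66.7% had a retained-intron transcript, against 58.3%. A value here is the level of a whole gene, so it does not separate productive transcripts from those forms.

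Levels are TPM, a unit that scales a gene's reads for its length and for the total of its sample. Of the 39 members, 34 had a mean of at least 1 TPM over the 6 tumors and were tested. The other five were SRSF12, at 0.15 TPM in control tumor 1 and listed at 0 in the rest, and HNRNPCL1, HNRNPCL2, HNRNPCL3 and HNRNPCL4, listed at 0 in every tumor. The tested members include 2 that do not encode an SR protein or hnRNP of their own. HNRNPD-DT is a noncoding transcript that starts beside HNRNPD on the other strand, and HNRNPUL2-BSCL2 is a read-through of 2 neighbouring genes. HNRNPA1 was the most abundant member, with a mean of 1301 TPM over the 6 tumors, followed by HNRNPC at 781 TPM and HNRNPA2B1 at 511 TPM. SRSF9, at 318 TPM, SRSF3, at 254 TPM, and SRSF5, at 196 TPM, were the highest of the SR proteins.

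**Figure D1:**
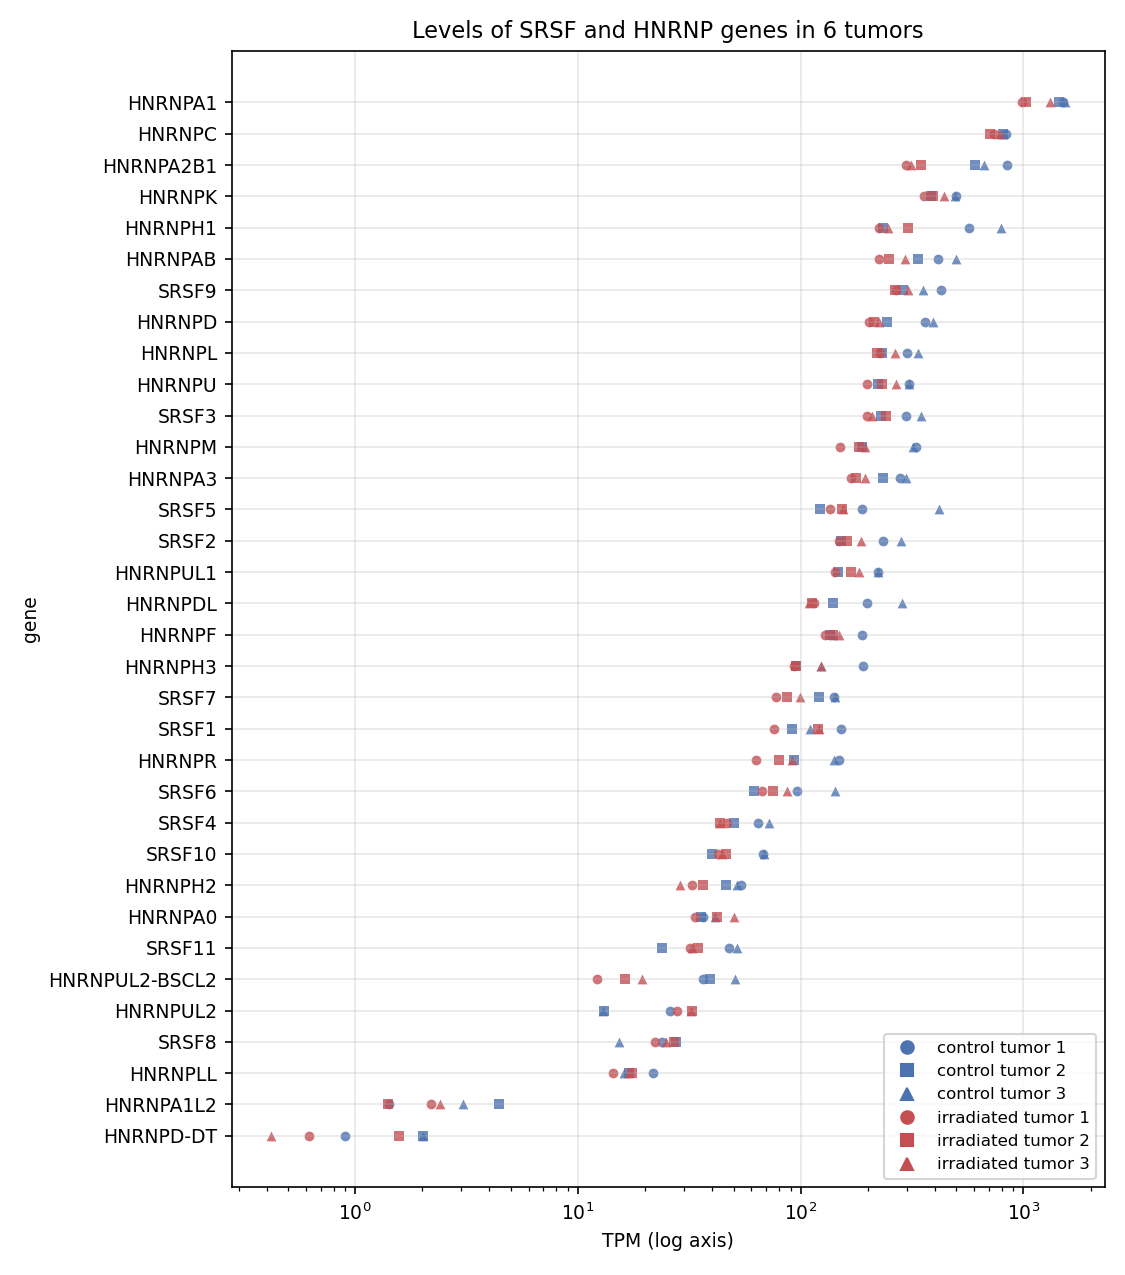
Level of each of the 34 tested genes in each tumor, in TPM on a log axis, with genes ordered by their mean and 1 point per tumor (blue for control, red for irradiated). HNRNPA1 is highest, at 983 to 1537 TPM, and the points of HNRNPA2B1 and of the read-through HNRNPUL2-BSCL2 form 2 separate groups.

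In irradiated tumors HNRNPA2B1 and HNRNPUL2-BSCL2 fell, and no member rose. The comparison used limma on log2(TPM + 1) over 14140 genes, at a Benjamini-Hochberg adjusted p of 0.05. The 2 of 34 members that fell make 5.88%, where 1.61% of all tested genes fell, and 0 of 34 rose, where 1.37% of all did. With so few calls these shares say little about the members. At an unadjusted p under 0.05, 13 members were lower (38.2%, against 11.5% of all tested genes) and 1 was higher. The fold change was below 0 in 31 of 34 members, against 55.7% of all tested genes, and the exceptions were HNRNPUL2, SRSF8 and HNRNPA0. The median log2 fold change over the members was -0.37, and over all tested genes it was -0.056.

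All 3 irradiated tumors lay below all 3 controls in 12 of 34 members, 35.3%, where the same held for 15.0% of all tested genes and for 18% of the 5231 with a mean of at least 20 TPM. They lay above in 1 member, HNRNPUL2, where 11.6% of all tested genes did. The 12 were 2 of 11 SRSF genes (18.2%), SRSF4 and SRSF7, and 10 of 23 HNRNP genes (43.5%). The SRSF share was thus close to the 15.0% and 18% of the other genes. The median was -0.36 over the SRSF genes and -0.44 over the HNRNP genes. The range was -0.61 to 0.18 for SRSF and -1.36 to 0.86 for HNRNP.

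**Figure D2:**
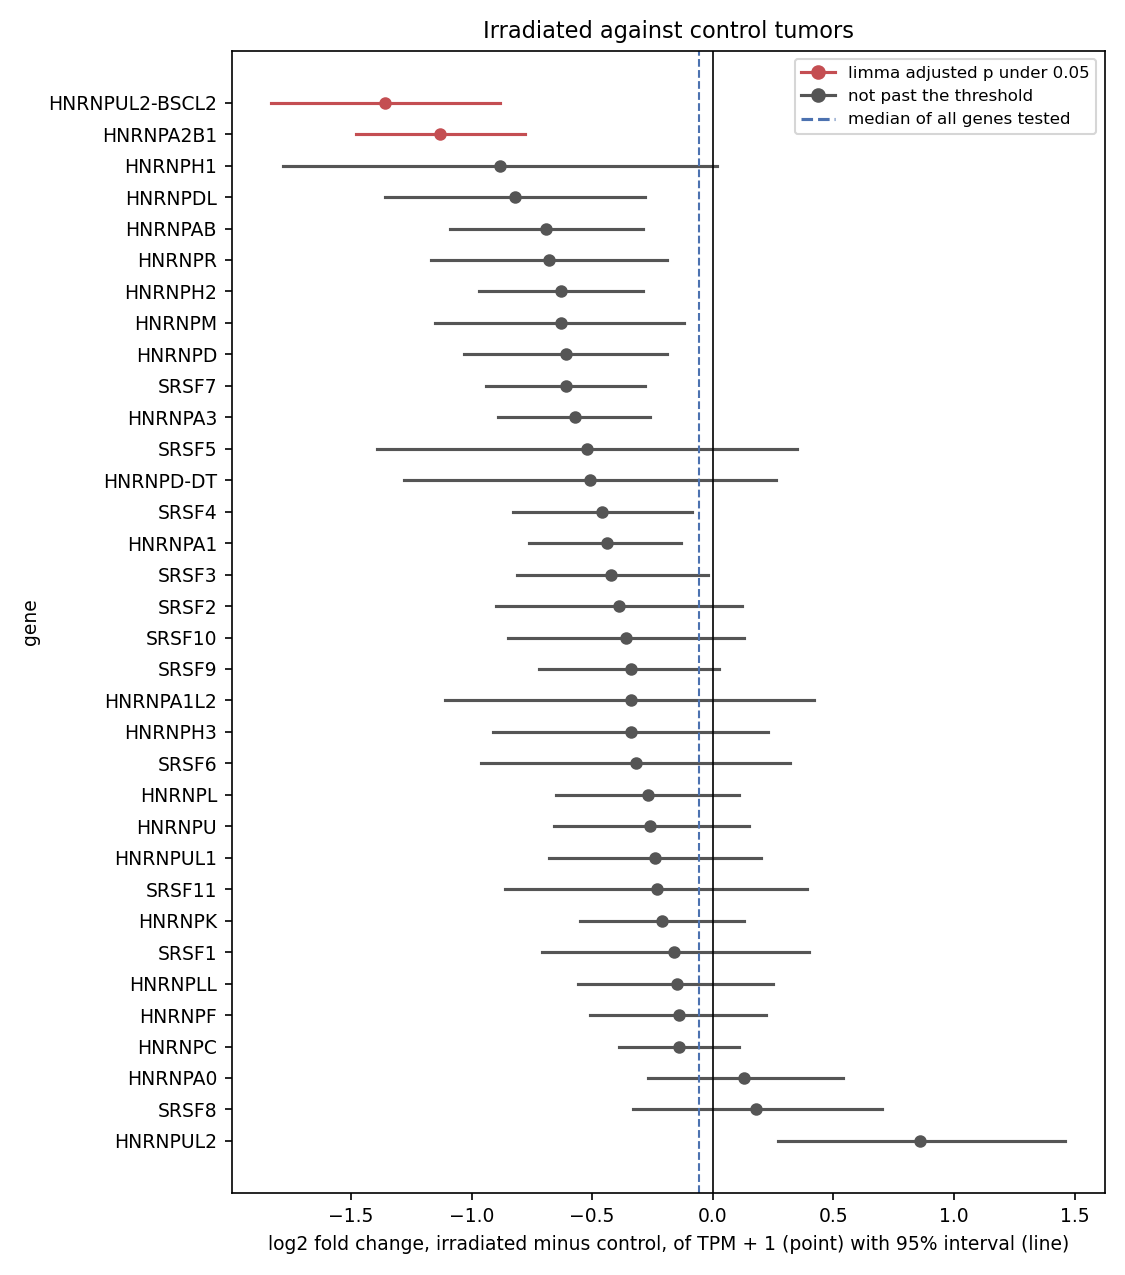
Log2 fold change of TPM + 1, irradiated minus control, for each tested gene (point) with its 95% interval (line), red where the limma adjusted p was under 0.05. The points of 31 of 34 genes lie left of 0, and the dashed line marks the median of all tested genes at -0.056.

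The spread among controls bears on all of these counts. Control tumor 2 was the lowest control in 28 of 34 members, 82.4%, against 55.9% of all tested genes. In 13 members, 38.2%, controls 1 and 3 lay above every irradiated tumor while control 2 lay within or below them, against 16.4% of all tested genes. These 13 were HNRNPK, HNRNPH1, HNRNPL, HNRNPU, HNRNPM, HNRNPUL1, SRSF2, SRSF3, SRSF5, SRSF6, SRSF9, SRSF10 and SRSF11. Without control tumor 2, a test with fewer samples, 13 members fell, 38.2%, where 3.95% of all tested genes fell. The members' median was then -0.58 and that of all genes -0.13. The 13 that fell without it were HNRNPA2B1, HNRNPUL2-BSCL2, HNRNPA3, HNRNPAB, HNRNPD, HNRNPDL, HNRNPH1, HNRNPH2, HNRNPM, HNRNPR, SRSF4, SRSF7 and SRSF10. Because control tumor 2 was mostly the lowest control, leaving it out raises the control means of most members. Leaving out any other single tumor gave 1 or 2 members that fell, where 0.475% to 0.8% of all tested genes did. With sample weights estimated from the data, 12 members fell, where 4.51% of all tested genes did.

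**Figure D3:**
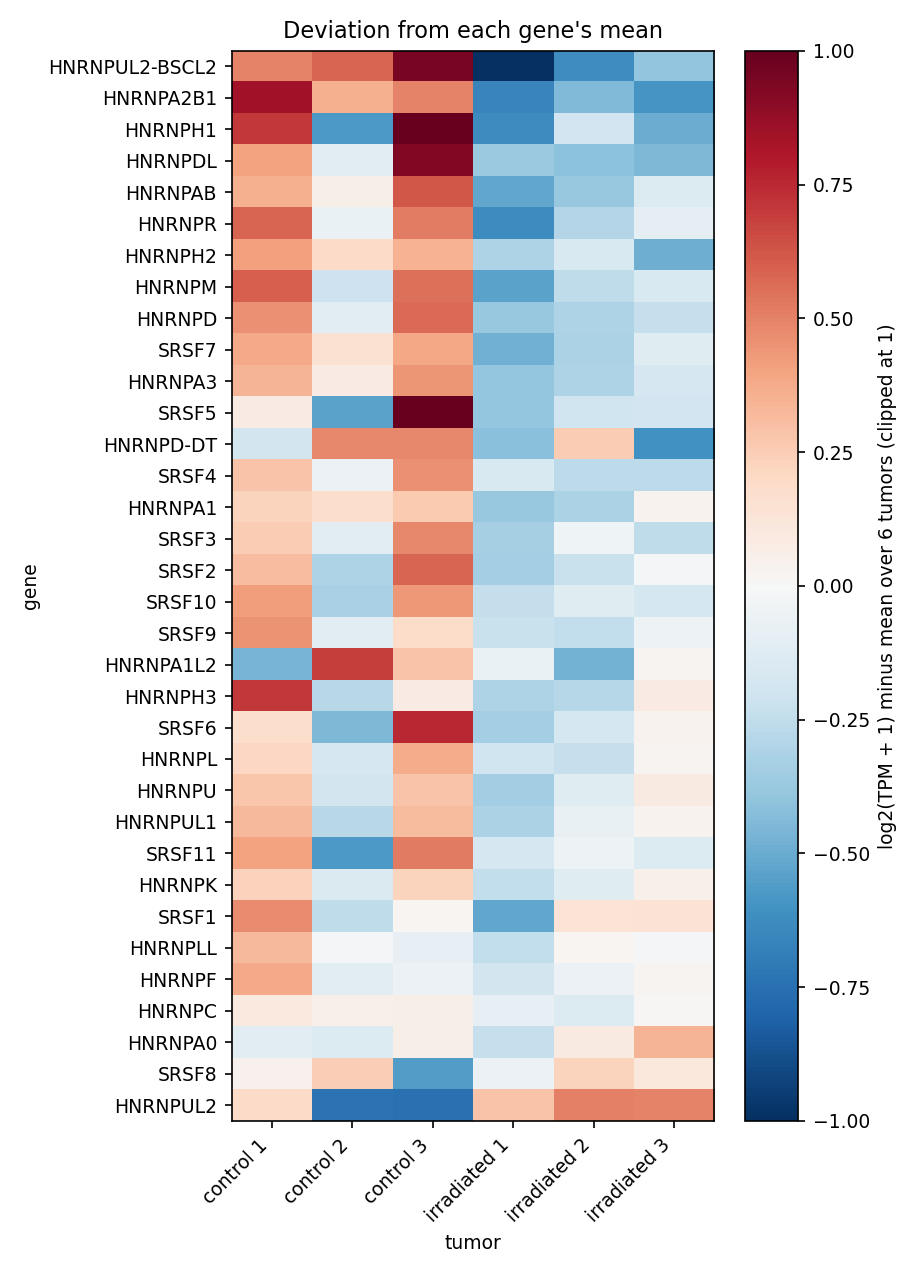
Deviation of log2(TPM + 1) from each gene's mean over the 6 tumors, clipped at 1, with genes ordered by fold change. Controls 1 and 3 are mostly red, the irradiated tumors mostly blue, and control 2 is the lowest control in 28 of the 34 rows.

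The summed level shows the same order of tumors. The 39 rows together held 9094, 6911 and 9543 TPM in control tumors 1, 2 and 3, and 5547, 6047 and 6642 TPM in irradiated tumors 1, 2 and 3. The groups did not overlap, but control tumor 2 and irradiated tumor 3 were 6911 and 6642 TPM. The SRSF genes summed to 1739, 1208 and 2006 TPM across controls and to 1112, 1253 and 1303 TPM after irradiation, and control tumor 2 was inside the irradiated range. The HNRNP genes summed to 7356, 5703 and 7537 TPM and to 4435, 4794 and 5339 TPM, without overlap. In a bulk sample, fewer cells of a type and less RNA per cell cannot be told apart.

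Other groups of transcripts had levels that differed between the tumors. The 12 proliferation genes summed to 984, 633 and 913 TPM across controls and to 623, 634 and 665 TPM after irradiation, so control tumor 2 was low there too, and 0 of the 12 passed the test. All 12 had a fold change below 0, with a median of -0.39, beside -0.37 for the SRSF and HNRNP genes. Skeletal muscle markers were lower in all 11 that were tested, without overlap, and summed to 201, 269 and 542 TPM across controls and 2.37, 142 and 2.79 TPM after irradiation. Of these, 3 of 11 fell. Fibroblast markers summed to 508 to 1059 TPM in controls and to 152 to 251 TPM in irradiated tumors, and 3 of 9 tested fell, the collagen genes COL1A1, COL1A2 and COL3A1, which make up most of the sum. In the same list COL6A3 (mean 1.64 and 7.78 TPM, log2 fold change 1.37, adjusted p = 0.213) and PDGFRB (3.51 and 8.09 TPM, 0.95, adjusted p = 0.211) had fold changes above 0. Of the keratinocyte markers only KRT10 was tested, and it fell, from 38.5 to 43.7 TPM in controls to 10.5 to 14.4 TPM after irradiation. KRT1 was listed at 0, and KRT5 and KRT14 had means of 0.263 and 0.34 TPM in controls and 0.47 and 1.1 TPM after irradiation. Macrophage markers summed to 87.2 to 107 TPM in controls and 108 to 207 TPM after irradiation, with 0 of 3 passing. Most of that sum was CD68 (means 84.6 and 135 TPM, log2 fold change 0.61). ADGRE1 was higher without overlap (0.64), while CSF1R (-0.13) and the untested CD14 (0.583 and 0.433 TPM) had lower means after irradiation. The handling of RNA from the host mouse is not given, so the cells behind the muscle, fibroblast and macrophage values are not known. The macrophage genes C1QA, C1QB and C1QC and the adipocyte genes ADIPOQ and LEP were listed at 0 in every tumor. The cell line's own markers were present, with VIM at 3148 to 5283 TPM and CD44 at 158 to 267 TPM, while ESR1 and PGR stayed at or below 0.32 TPM. Of the markers listed as low, TFF3 reached 2.36 TPM and EPCAM was at 2.9 to 5.1 TPM. VIM and CD44 were lower in irradiated tumors without overlap (log2 fold changes -0.46 and -0.44), and LGALS1 was higher without overlap (0.51). Of 6 tested genes in this list 4 had a fold change below 0, and 0 passed. Control tumor 2 was apart from the other tumors on the second principal component, which held 19.1% of the variance. The part that these differences between tumors have in the levels of splicing factors was not tested.

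HNRNPA2B1 encodes the A2 and B1 isoforms, which bind messenger RNA and sort small RNAs into vesicles. It stood at 844, 604 and 663 TPM across controls and at 297, 346 and 313 TPM after irradiation. Every control lay above every irradiated tumor, and control tumor 2, its lowest control, was still well above irradiated tumor 2. The mean fell from 703 ± 125 to 318 ± 25 TPM (SD, n = 3 per group), a drop of 54.7%. The log2 fold change was -1.13 (SE 0.15, 95% interval -1.48 to -0.78, limma adjusted p = 0.0101). The call was kept with each tumor left out in turn (adjusted p from 0.0109 to 0.0491) and lost when no filter on low values was used (0.0528, over 30037 genes) and when a minimum fold of 1.5 was tested. The gene (ENSG00000122566) lies on chromosome 7 from 26173057 to 26201529 on the minus strand of GRCh38, and its first exons overlap those of CBX3, which runs the other way and encodes a heterochromatin protein. CBX3 was at 106, 85.2 and 82.2 TPM in controls and at 61.7, 73.4 and 49.8 TPM in irradiated tumors, without overlap and without passing the test (log2 fold change -0.57, adjusted p = 0.13).

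HNRNPA1, HNRNPA3 and HNRNPAB were lower by smaller amounts than HNRNPA2B1 and did not pass. HNRNPA1, the most abundant hnRNP and a repressor of many exons, stood at 1498, 1450.1 and 1537 TPM in controls and at 983, 1027 and 1309 TPM in irradiated tumors. The groups did not overlap, although irradiated tumor 3 came close to the controls (log2 fold change -0.44, SE 0.14, adjusted p = 0.123). HNRNPA3, which binds the same type of element, was at 278, 233 and 298 TPM and at 168, 177 and 195 TPM (-0.57, SE 0.14, adjusted p = 0.0681). Its groups were separate, and the irradiated tumors were the tighter of the 2. HNRNPAB, also known for binding in mRNA transport, was at 412, 336 and 496 TPM and at 224, 248 and 293 TPM (-0.69, SE 0.17, adjusted p = 0.0769), again without overlap.

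The remaining members with HNRNPA names overlapped between the groups. HNRNPA0, a binder of AU-rich elements, was at 36.4, 35.8 and 41.2 TPM in controls and at 33.5, 42.2 and 50.2 TPM in irradiated tumors (log2 fold change 0.13, 95% interval -0.27 to 0.54, adjusted p = 0.706). Its values overlapped and irradiated tumor 3 was the highest. HNRNPA1L2, an intron-poor copy of HNRNPA1, was at 1.4 to 4.4 TPM over the 6 tumors with overlapping groups. Reads of HNRNPA1 can be shared with its pseudogenes. Of 135 pseudogene rows named after members 8 passed the filter, and 1 of them, HNRNPA1P48, fell (22.1, 19.9 and 31.7 TPM in controls, 7.84, 10.7 and 8.88 TPM after irradiation, log2 fold change -1.32, adjusted p = 0.0212). Summed over all HNRNPA1 pseudogene rows the level was 37.1, 32.4 and 65.7 TPM and 14, 18.5 and 14.4 TPM, small beside HNRNPA1 itself.

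The promoters of HNRNPA2B1, of HNRNPAB and of HNRNPC, which hardly differed between groups, are shown because these abundant genes had fold changes of different size. Each is the 250 bases before the first listed RefSeq start in GRCh38.p14. These starts lie inside the GENCODE genes. For HNRNPA2B1 the whole stretch does, downstream of the GENCODE start at 26201529. Sequences run 5′ to 3′ on the gene's own strand, with the motifs searched in capitals. These were the GC box GGGCGG, the CCAAT box CCAAT, the E-box CACGTG and the TATA box TATAAA, on both strands. The positions are chr7:26200747-26200996 (minus), chr5:178204283-178204532 (plus) and chr14:21269443-21269692 (minus).
HNRNPA2B1: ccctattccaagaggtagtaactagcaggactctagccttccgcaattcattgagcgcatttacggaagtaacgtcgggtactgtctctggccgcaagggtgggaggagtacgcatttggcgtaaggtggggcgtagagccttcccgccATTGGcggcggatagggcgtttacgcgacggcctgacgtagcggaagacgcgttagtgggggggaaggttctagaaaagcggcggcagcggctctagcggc
HNRNPAB: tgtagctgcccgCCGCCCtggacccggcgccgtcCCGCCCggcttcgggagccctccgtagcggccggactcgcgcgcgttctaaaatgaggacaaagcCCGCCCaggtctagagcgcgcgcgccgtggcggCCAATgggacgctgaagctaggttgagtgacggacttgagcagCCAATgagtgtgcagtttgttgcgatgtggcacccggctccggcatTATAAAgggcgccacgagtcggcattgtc
HNRNPC: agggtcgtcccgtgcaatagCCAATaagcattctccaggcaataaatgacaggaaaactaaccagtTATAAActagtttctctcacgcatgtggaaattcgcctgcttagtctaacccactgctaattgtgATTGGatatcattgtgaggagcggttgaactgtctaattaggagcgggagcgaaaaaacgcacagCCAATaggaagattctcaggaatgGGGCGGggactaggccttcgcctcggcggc

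The HNRNPA2B1 stretch held 1 CCAAT box on the minus strand and none of the other motifs, with 59.2% G and C. The HNRNPAB stretch held 3 GC boxes, 2 CCAAT boxes and 1 TATA box, with 66% G and C. The HNRNPC stretch held 3 CCAAT boxes, 1 GC box and 1 TATA box, with 48.4% G and C. Over the 32 tested members matched by symbol, and over every listed start of each, 19 had a CCAAT box (59.4%, against 41.7% of 10073 tested genes matched) and 21 a GC box (65.6% against 74.9%). An E-box was found in 6 (18.8% against 11.4%) and a TATA box in 6 (18.8% against 8.14%). Over all 27305 listed genes the shares were 37% for the CCAAT box, 46.2% for the GC box, 7.73% for the E-box and 13% for the TATA box. These are matches of letters and no binding was measured.

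HNRNPC, which forms the core particle on nascent RNA and masks cryptic exons, showed a small difference with tight groups. It was at 833, 808 and 812 TPM in controls and at 736, 709.8 and 786 TPM in irradiated tumors. The groups did not overlap, and the mean was 818 ± 13.5 and 744 ± 38.6 TPM (SD, n = 3 per group). The log2 fold change was -0.14 (SE 0.11, 95% interval -0.39 to 0.11, adjusted p = 0.506).

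HNRNPD (AUF1), which binds AU-rich elements and hastens mRNA decay, and its neighbour and relative HNRNPDL were below all controls in every irradiated tumor without passing. HNRNPD was at 362, 245 and 392 TPM in controls and at 203, 213 and 225 TPM in irradiated tumors (log2 fold change -0.61, SE 0.18, adjusted p = 0.116). HNRNPDL, which controls its own splicing through a poison exon, was at 198, 139 and 285 TPM and at 115, 112 and 109 TPM (-0.82, SE 0.24, adjusted p = 0.104). Both were lowest among controls in tumor 2, and the irradiated tumors differed little from each other. HNRNPD-DT was at 0.42 to 2.01 TPM, with overlapping groups (adjusted p = 0.426).

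The F and H proteins bind G-rich runs. HNRNPH1 was at 568, 234 and 794 TPM in controls and at 225, 304 and 246 TPM in irradiated tumors (log2 fold change -0.88, SE 0.39, 95% interval -1.78 to 0.019, adjusted p = 0.251). Controls 1 and 3 were far above the irradiated tumors and control 2 was among them, and without control 2 HNRNPH1 fell (-1.39, adjusted p = 0.0183). Without control 3 its log2 fold change was -0.51 (adjusted p = 0.518). HNRNPH2 was at 54, 46.3 and 51.8 TPM and at 32.4, 36.4 and 28.6 TPM, without overlap (-0.63, SE 0.15, adjusted p = 0.0663). Its 1 transcript in GENCODE has 2223 bases, of which 362 are shared with exons of the read-through row RPL36A-HNRNPH2. That row was at 225, 321 and 184 TPM in controls and at 398, 465 and 328 TPM in irradiated tumors, the opposite order (0.73, adjusted p = 0.116). Reads from the shared exons can be split between these rows in more than 1 way. HNRNPH3 (adjusted p = 0.471) and HNRNPF (adjusted p = 0.651) overlapped between the groups.

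The other large hnRNPs had smaller differences, apart from HNRNPM and HNRNPR. HNRNPR, a component of the messenger ribonucleoprotein that transports RNA in axons, was at 148, 93.7 and 140.4 TPM in controls and at 63.2, 79.9 and 91.6 TPM in irradiated tumors. The groups were barely apart, with control 2 and irradiated 3 next to each other (log2 fold change -0.68, SE 0.21, adjusted p = 0.123). Its relative SYNCRIP (hnRNP Q) was at 48.7 to 68.3 TPM in controls and at 41.1 to 50.3 TPM in irradiated tumors, with overlap (-0.34, adjusted p = 0.284). HNRNPM, a regulator of splicing in the epithelial to mesenchymal transition, was at 329.7, 188 and 319 TPM and at 149.6, 182 and 195 TPM (-0.63, adjusted p = 0.165). Control 2 lay within the irradiated range, and without it HNRNPM fell (-0.89, adjusted p = 0.0254). Without control 1 or control 3 HNRNPM did not pass (-0.49 and -0.51, adjusted p = 0.362 and 0.365). HNRNPK, HNRNPL, HNRNPLL, HNRNPU and HNRNPUL1 had log2 fold changes from -0.27 to -0.15, overlapping groups and adjusted p from 0.389 to 0.659.

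The SR proteins had 0 calls of 11. SRSF7, which links splicing to mRNA export and to polyadenylation site choice, was at 141, 120.5 and 142 TPM in controls and at 77.3, 87 and 99.3 TPM in irradiated tumors. The groups were separate (log2 fold change -0.61, SE 0.14, adjusted p = 0.0656), and the gene passed without control tumor 2 (-0.69, adjusted p = 0.0446), with quantile normalization (-0.57, adjusted p = 0.0466) and with sample weights (-0.68, adjusted p = 0.0232). SRSF7 missed the threshold in 17 other alternative settings (adjusted p from 0.0535 to 0.222). SRSF4, one of the long SR proteins, was at 64, 50.1 and 72 TPM and at 46.8, 43.3 and 43.3 TPM, without overlap (-0.46, SE 0.16, adjusted p = 0.164). SRSF6, the nearest relative of SRSF4, overlapped, at 95.8, 61.7 and 143 TPM and at 66.7, 74.7 and 86.8 TPM (-0.32, adjusted p = 0.547). Its fold change was -0.025 without control tumor 3 (adjusted p = 0.971) and -0.63 without control tumor 2 (adjusted p = 0.111).

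SRSF3, the smallest SR protein and a partner of SRSF7 in export, was at 298, 230.0 and 348 TPM in controls and at 198, 242 and 209 TPM in irradiated tumors (log2 fold change -0.42, SE 0.17, adjusted p = 0.224). SRSF9, the closest relative of SRSF1, was at 428, 289 and 355 TPM and at 268, 264 and 302 TPM (-0.34, adjusted p = 0.273), with -0.21 without control tumor 1 (adjusted p = 0.537). In both genes control tumor 2 lay among the irradiated tumors. SRSF5 was at 188, 122 and 418 TPM and at 135, 154 and 155 TPM (-0.52, SE 0.38, adjusted p = 0.47), and control tumor 3 stood far above all the others. The SRSF5 fold change was -0.038 without control tumor 3 (adjusted p = 0.948) and -0.92 without control tumor 2 (adjusted p = 0.116). SRSF2, which binds exonic enhancers and has a role in transcription elongation, was at 234, 152 and 282 TPM and at 149, 161 and 186 TPM (-0.39, adjusted p = 0.359), with -0.20 without control tumor 3 (adjusted p = 0.692) and -0.64 without control tumor 2 (adjusted p = 0.0551).

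SRSF1, the prototype of the family, differed little. It was at 151, 91 and 110.2 TPM in controls and at 75.5, 119.8 and 120.3 TPM in irradiated tumors, with overlap (log2 fold change -0.16, 95% interval -0.71 to 0.40, adjusted p = 0.748). A row with a clone-based name that shares 1890 bases of exon with SRSF1 (ENSG00000266086) was at 18.8, 7.79 and 18.6 TPM in controls and at 5.77, 2.6 and 3.01 TPM in irradiated tumors (log2 fold change -1.71, adjusted p = 0.052). The sum of both rows was 170.0, 98.8 and 129 TPM and 81.2, 122 and 123 TPM. SRSF10, known for its role in the heat-shock response (adjusted p = 0.386), SRSF11 (0.667) and SRSF8 (0.678) overlapped between the groups, and SRSF8 had a fold change above 0 (0.18, 95% interval -0.33 to 0.70).

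HNRNPUL2, a relative of the scaffold protein hnRNP U with a role in the response to DNA breaks, and HNRNPUL2-BSCL2 start close together and had fold changes of opposite sign. They lie on the minus strand of chromosome 11 in GRCh38, HNRNPUL2 (ENSG00000214753) from 62712630 to 62727472 and the read-through (ENSG00000234857) from 62690275 to 62727384. HNRNPUL2 and the read-through share 2391 bases of exon, and the read-through and BSCL2 share 1610. The read-through transcript has 4001 bases in GENCODE, so all of its exon sequence is shared with HNRNPUL2 or BSCL2. GENCODE types this 1 transcript as a target of nonsense-mediated decay. The main transcripts of HNRNPUL2 and the read-through part after exon 13. There HNRNPUL2 goes on to its own last exon and the read-through skips to an exon of BSCL2. BSCL2 is the gene of seipin, a protein of lipid droplets. The 30 bases before and after that junction are printed in lower case and capitals, to show where the transcripts part. A read that crosses it tells these rows apart. So does a read inside the last exon of HNRNPUL2, from 62712630 to 62715379, which the read-through skips.
HNRNPUL2: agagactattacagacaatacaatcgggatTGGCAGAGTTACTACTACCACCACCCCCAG
HNRNPUL2-BSCL2: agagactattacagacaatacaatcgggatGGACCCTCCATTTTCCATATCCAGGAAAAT

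The read-through row fell, at 36.6, 39 and 50.5 TPM in controls and 12.2, 16.3 and 19.3 TPM after irradiation. All controls were above all irradiated tumors, with means of 42 ± 7.44 and 15.9 ± 3.56 TPM (SD, n = 3 per group, log2 fold change -1.36, SE 0.21, limma adjusted p = 0.0165). The call was lost without irradiated tumor 1, irradiated tumor 2, control 1 or control 3 (adjusted p from 0.0504 to 0.0614) and without a filter (0.0656). HNRNPUL2 was at 25.8, 13.1 and 13 TPM in controls and at 27.7, 32.4 and 32.2 TPM in irradiated tumors. The groups did not overlap, but control tumor 1 came close to the irradiated ones (0.86, SE 0.26, adjusted p = 0.115), and HNRNPUL2 passed without it (1.17, adjusted p = 0.0332) and with sample weights (0.92, adjusted p = 0.0472). BSCL2 was at 15.7, 21.7 and 14.1 TPM and at 23.9, 26 and 30.8 TPM, also higher without overlap (0.64, adjusted p = 0.124).

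The sum of the 3 rows did not separate the groups. It was 78, 73.8 and 77.6 TPM in controls and 63.8, 74.7 and 82.4 TPM after irradiation, with a log2 fold change of -0.061 (adjusted p = 0.84). The share of that sum on the read-through row was 46.9%, 52.8% and 65.1% in controls and 19.1%, 21.8% and 23.4% in irradiated tumors. The division of the locus among its rows differed, and whether this reflects the transcripts or the way reads of shared exons were assigned was not tested.

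**Figure D4:**
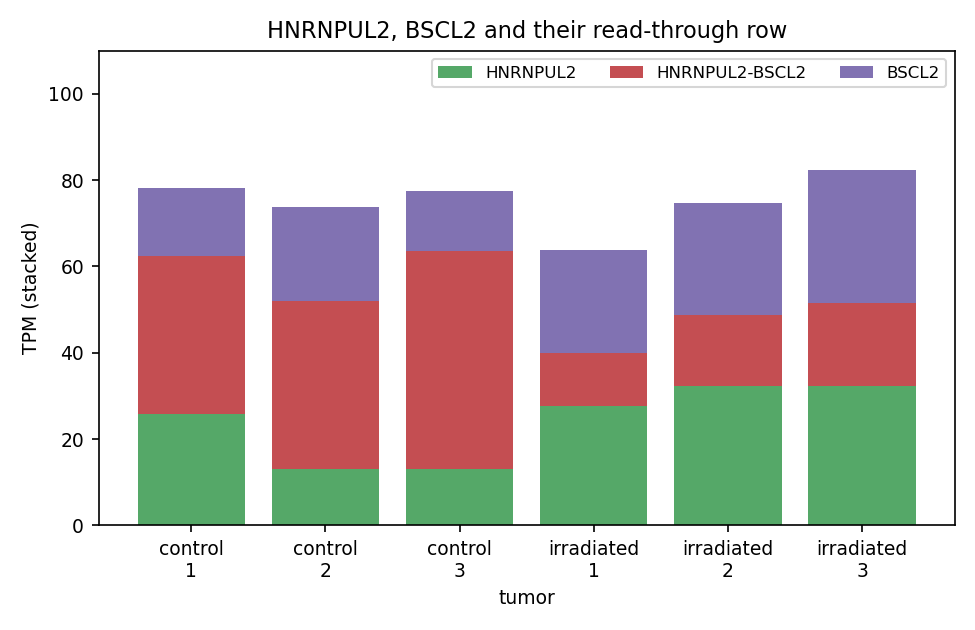
TPM of HNRNPUL2, of the read-through row HNRNPUL2-BSCL2 and of BSCL2, stacked, in each tumor. The total is 63.8 to 82.4 TPM in all 6 tumors, while the read-through part is 36.6 to 50.5 TPM in controls and 12.2 to 19.3 TPM after irradiation.

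Ratios between related genes within a tumor do not depend on the scaling of that tumor. HNRNPA2B1 was 0.564, 0.416 and 0.431 of HNRNPA1 in controls and 0.302, 0.337 and 0.239 of it in irradiated tumors, a mean of 0.47 ± 0.0811 and 0.292 ± 0.0494 (SD, n = 3 per group). Against HNRNPC it was 1.01, 0.747 and 0.816 in controls and 0.403, 0.487 and 0.398 in irradiated tumors. In both ratios the groups were separate, so HNRNPA2B1 was lower in irradiated tumors also relative to these 2 abundant hnRNPs. The ratio of the read-through to HNRNPUL2 was 1.42 to 3.88 in controls and 0.439 to 0.598 in irradiated tumors, also separate. That separation adds nothing to the levels of these rows, which lay apart in opposite directions. The other 10 ratios computed overlapped. Among them HNRNPA3 to HNRNPA1 was 0.161 to 0.194 and 0.149 to 0.172, HNRNPDL to HNRNPD 0.546 to 0.727 and 0.486 to 0.565, and SRSF7 to SRSF3 0.408 to 0.524 and 0.36 to 0.474. The ratios are a description and were not tested.

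**Figure D5:**
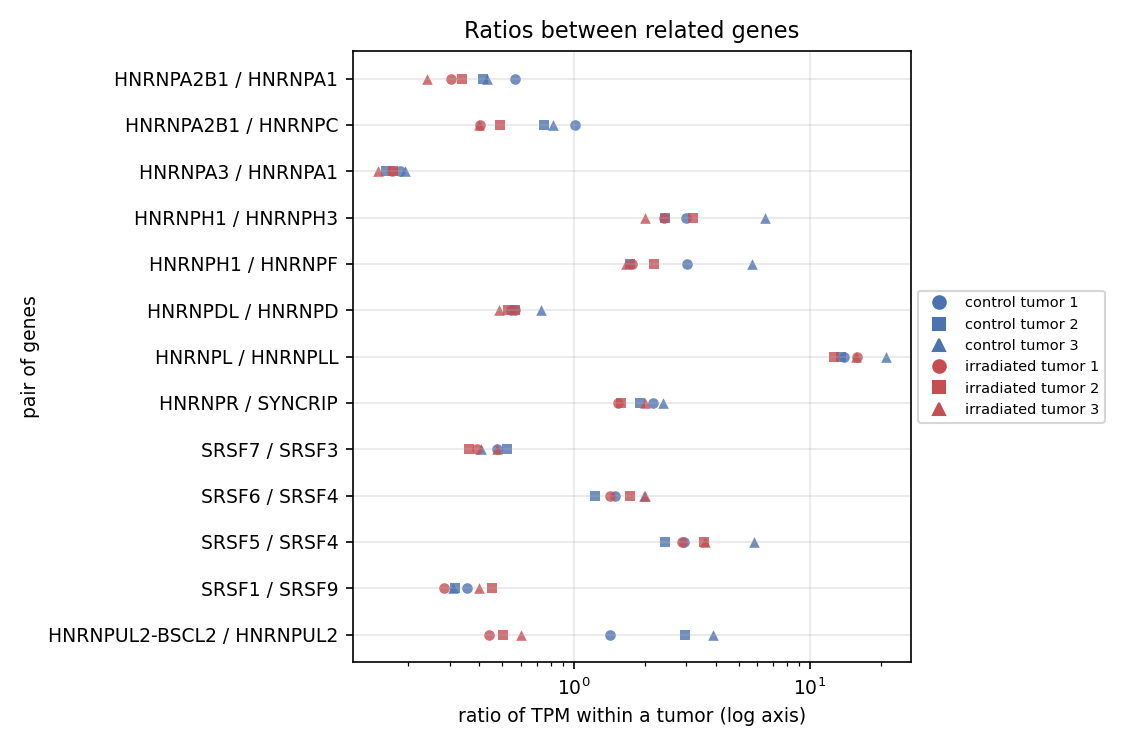
Ratio of TPM between 2 related genes within each tumor, on a log axis, with 1 point per tumor (blue for control, red for irradiated). The groups are apart for HNRNPA2B1 to HNRNPA1, for HNRNPA2B1 to HNRNPC and for the read-through to HNRNPUL2, and overlap in the other 10 pairs.

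In 4 lists of other splicing genes 1 gene fell and 1 rose, and the counts with a fold change below 0 are given for each list, where 55.7% of all tested genes were below 0. Among kinases that phosphorylate SR proteins and the transportins that import nuclear proteins, 0 of 10 passed, 10 of 10 had a fold change below 0 and the median was -0.29. The kinase SRPK1 was at 60.8, 39.3 and 50.2 TPM in controls and at 33.7, 37.1 and 33.3 TPM in irradiated tumors (log2 fold change -0.50, adjusted p = 0.169), without overlap. Of 39 other tested RNA-binding regulators, 1 fell and 0 rose, 38 had a fold change below 0, and the median was -0.39. The gene that fell was TIAL1, a binder of U-rich introns, at 71.9, 49.1 and 54.4 TPM in controls and at 28.8, 34.2 and 26.1 TPM in irradiated tumors (-0.94, SE 0.18, limma adjusted p = 0.0369). TIAL1 passed when control tumor 2 was left out, and missed the threshold when each of the other five was (adjusted p from 0.0703 to 0.13), without a filter (0.103), without trend (0.0692) and under a replicate block (0.0798).

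Of 40 tested genes of the core spliceosome 1 rose and 0 fell, 32 had a fold change below 0, and the median was -0.19. The gene that rose was SNRPD2, a subunit of the Sm ring of the small nuclear ribonucleoproteins, at 571, 658 and 553 TPM in controls and at 1008, 1164 and 1116 TPM in irradiated tumors (log2 fold change 0.88, SE 0.12, limma adjusted p = 0.0124). Its groups were far apart, and the call was lost without control tumor 1 or 3 or irradiated tumor 2 (adjusted p up to 0.0622) and without a filter (0.0584). Another ring subunit, SNRPE, was lower in every irradiated tumor (-0.56, adjusted p = 0.0949). Of 16 genes of nonsense-mediated decay and the exon junction complex 0 passed, 13 had a fold change below 0 and the median was -0.21. RBM8A, a core subunit of the exon junction complex, had a log2 fold change of -0.58 (adjusted p = 0.0559). Whether the members differ from these lists was not tested.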

How the data were processed

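The deposited table gives TPM per gene for 6 tumors, 1 column each, from TruSeq RNA libraries per the labels' protocols. The authors' values sum to 998020 to 998569 in controls and 992259 to 994773 in irradiated tumors. HISAT2, StringTie, RSEM and hg38 are named in the submitters' processing notes. Tool versions, annotation release, strand and the handling of host RNA are not given here. TPM keep no depth, so reads behind a value are unknown and no count test was run. Here limma 3.58.1 in R 4.3.3 (lmFit, eBayes with trend) compared the groups on log2(TPM + 1), so with a pseudocount of 1, two-sided, in 14140 genes averaging 1 TPM or more, with Benjamini-Hochberg adjustment. Fold changes on this scale understate changes of low genes. On simulated data of this comparison (14140 genes, 200 changed, 5 draws) it recovered 45.6% of 2-fold and 90% of 4-fold changes, with 6.35% false calls. The changed genes were drawn only from the more abundant ones, so these recovery rates do not cover low genes. Members and lists were chosen with earlier results of these data known. Values in every tumor are given for members that passed, whose groups did not overlap, that were highest in their family, or that are close relatives of these. HNRNPM, and BSCL2, CBX3, RPL36A-HNRNPH2, HNRNPA1P48, ENSG00000266086, SYNCRIP, SRPK1, SNRPE and RBM8A, which are no members, were chosen after their values were seen. Positions and transcript types are from GENCODE release 29 (GRCh38), which need not be the authors' release. Promoters are from RefSeq.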

Additional observations from a re-analysis of the deposited data

How the results depend on the processing

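The number of members that fell was 2 in the comparison as reported, where 1.61% of all tested genes fell. It was 0 without a filter on low values (0.213% of all tested genes) and with a minimum fold of 1.5 (0.262%). It was 12 with sample weights (4.51% of all tested genes) and 3 with quantile normalization (1.96%). It was 1 with HNRNPUL2, HNRNPUL2-BSCL2 and BSCL2 summed (1.6%), where HNRNPUL2 turned from 0.86 to -0.061. Leaving out single tumors gave 1 to 13 members that fell, where 0.475% to 3.95% of all tested genes did. It gave 0 to 1 that rose, where 0.404% to 1.61% of all tested genes did. The members' median log2 fold change then ranged from -0.58 to -0.28. The highest count came without control tumor 2. Sample weights gave 1 member that rose, where 3.01% of all tested genes did. The median was -0.61 without control tumor 2 and irradiated tumor 2 together, an alternative chosen after seeing the data, as was the sum. The cause of these shifts was not tested. Medians of ratios, quantile normalization and removal of ribosomal protein and mitochondrially encoded genes kept the members' median between -0.35 and -0.33. With the replicate number as a block, 2 members fell, where 0.686% of all tested genes did. Same-numbered tumors did not deviate together (correlations over genes of -0.0433, -0.0459 and -0.059), so the numbers are not taken as pairs. The number of genes called was 194 that rose and 227 that fell as reported, 69 and 64 without a filter, 34 and 37 with a minimum fold, 426 and 638 with sample weights, and 88 and 97 with the block. With 3 tumors a group and no depth, differences of 2-fold or less are often missed (45.6% of simulated 2-fold changes were recovered).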
